A study of Mus musculus with 16 samples.

Results

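Butyrate added to IL-1β was compared with IL-1β alone in mouse islets by RNA sequencing, over 8 of the 16 libraries of the series and all 18587 genes that passed a filter on low counts, out of 52636 in the count table. The members of the comparison were taken from the labels: the 4 libraries of islets that received 0.2 mM butyrate together with 50 pg/mL IL-1β, and the 4 libraries of islets that received 50 pg/mL IL-1β only. The 8 other libraries, 4 of control islets with neither agent and 4 of islets with 0.2 mM butyrate only, were used for the shared estimate of spread and to compare the butyrate effect with and without IL-1β. All islets came from male mice of 12 weeks and were cultured for 10 days with the additions, in RPMI medium with 2% human serum. The strain is C57BL/6JRj in the sample labels and C57BL/6NRj in the paper's methods. Islets of several mice were pooled and 500 of them made 1 library, so the unit of replication is the islet preparation, and a library mixes beta, alpha, delta and PP cells with the vascular, stromal and immune cells that isolated islets keep.

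Interleukin-1β binds its receptor on beta cells and on resident immune cells and signals through NF-κB to genes for chemokines, inducible nitric oxide synthase and acute phase proteins. Butyrate, which bacteria form in the colon from dietary fibre, enters cells through monocarboxylate transporters and inhibits histone deacetylases. It also activates the G protein-coupled receptors encoded by *Ffar2* and *Ffar3*. Histone deacetylases remove acetyl groups from histone tails, and their inhibitors are known to raise some genes, to lower others and to slow cell division in many cell types. The comparison addresses what butyrate changes in islets that are under the cytokine the whole time.

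The 4 IL-1β libraries held 18635943 to 25955943 counts and the 4 libraries with IL-1β plus butyrate 19713325 to 23688084. Insulin 2 transcripts made up 7.86 to 9.97% of the counts with IL-1β and 7.98 to 9.97% with IL-1β plus butyrate, and the hormone genes *Gcg*, *Sst* and *Ppy* were expressed in every library, so the tissue label held. IL-1β replicate 1 stood apart. On the first principal component of the 8 libraries, which held 56.2% of the variance of the 1000 most variable genes, it lay at -40.6, against -14.4 to -7.48 for the other IL-1β libraries and 16.5 to 20.01 for IL-1β plus butyrate. It had a count for 28693 genes, against 29911 to 31751 and 31168 to 32805, and its olfactory receptor genes summed to 49.9 CPM, which are counts scaled to equal library size,, against 103 to 120 and 116 to 150. Counts that rest on this library are given below with and without it where they move.

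Butyrate raised 1563 genes and lowered 2066 genes in the presence of IL-1β at a false discovery rate (FDR) under 0.01 in edgeR's quasi-likelihood test, which is 8.41% and 11.1% of the genes tested and 19.5% together. Most changes were small. The median log2 fold change was 0.49 among raised genes and -0.36 among lowered genes, and 3038 of the 3629 called genes (83.7%) changed less than 2-fold. At least 2-fold changes were found for 320 raised and 271 lowered genes, fitted changes of at least 4-fold for 53 and 49, and of at least 8-fold for 9 and 5. Of these raised genes, 6 of the 53 and 4 of the 9 had at most 3 counts in every IL-1β library, where the fitted size is not well measured. The CPM values of the 4 libraries with and the 4 without butyrate did not overlap for 3345 of the called genes (92.2%), against 26.9% of all genes tested. With upper-quartile scaling in place of TMM scaling, the median of all tested genes moved from 0.012 to 0.060 on the log2 scale and the split became 2137 raised and 1566 lowered, so the balance of raised and lowered genes turned with the scaling. All 1563 raised genes and 1565 of the lowered genes were called in the same direction under both scalings. Without IL-1β replicate 1 there were 1303 raised genes, 1253 of them among the 1563, and 1973 lowered genes, 1832 of them among the 2066. A fit with a replicate block, which pairs libraries by their number, gave 2126 raised and 2857 lowered genes.

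**Figure D1:**
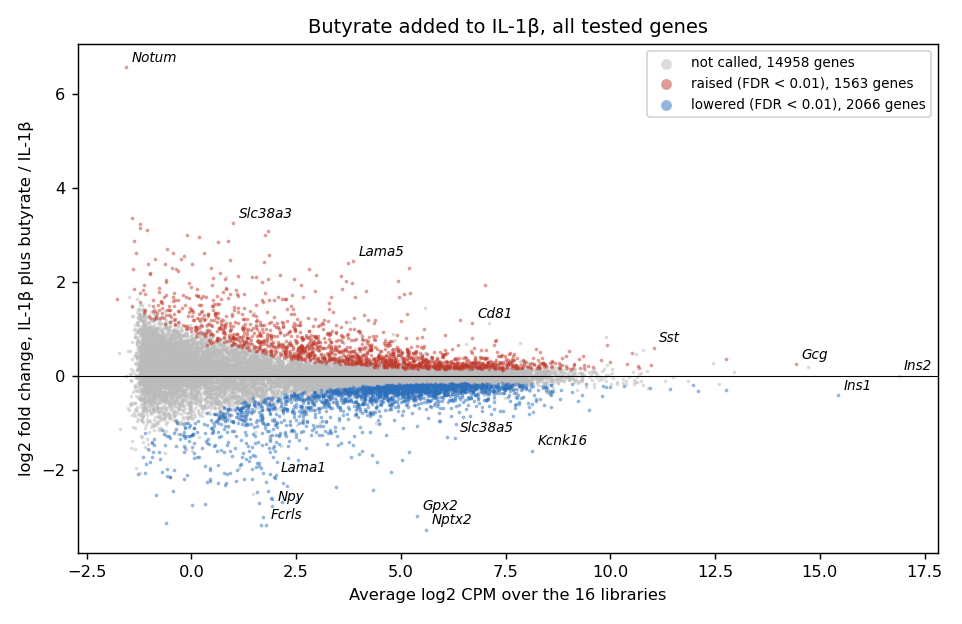
Each point is 1 of the 18587 tested genes, with its average log2 CPM over the 16 libraries on the x axis and its log2 fold change, IL-1β plus butyrate over IL-1β, on the y axis. The changes of at least 4-fold lie mostly to the left, at low expression, and *Notum*, the highest point, had no count in any IL-1β library, so that its fitted value is not a measure of size.

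The size of change differed with expression level. Binned by the mean CPM in control islets, which are in neither condition compared, called genes with at least a 2-fold change made up 5.27% of the 4480 genes under 1 CPM, 6.35% of the 2536 genes from 1 to 3 CPM, 5.84% from 3 to 10, 1.07% from 10 to 30, 0.304% from 30 to 100 and 0.271% of the 1847 genes over 100 CPM. The share lowered at any size went from 1.92% under 1 CPM to 18.2% between 30 and 100 CPM and was 15.4% over 100 CPM, while the share raised was highest, 13%, between 3 and 10 CPM. A small change is called more readily at a higher count, so these shares describe the table as tested and not the share of genes affected. Protein-coding genes were raised in 9.96% and lowered in 13.3% of 14744 cases. Of 840 long intergenic non-coding RNA genes 3.45% were raised and 3.45% lowered, with a median log2 fold change of 0.17. The X chromosome held 534 tested genes, of which 5.81% were raised and 19.1% lowered. Among genes with an average log2 CPM of at least 1, 23.7% of 405 X-linked genes were lowered against 15% of all 12693, and 6.17% were raised against 10.4%.

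**Figure D2:**
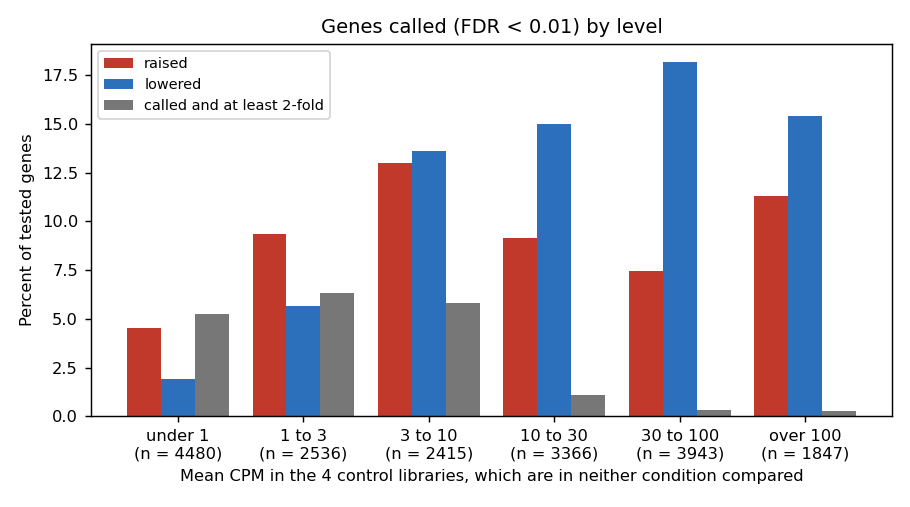
Bars give the percent of tested genes raised, lowered, and called with at least a 2-fold change (FDR under 0.01), in 6 bins of the mean CPM in the 4 control libraries, with the number of genes in each bin below it. Changes of at least 2-fold fall from 6.35% of genes between 1 and 3 CPM to 0.271% over 100 CPM, and the lowered share reaches 18.2% between 30 and 100 CPM.

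Among genes whose average log2 CPM reached 1 and whose conditions did not overlap, the largest rises were in genes of varied function. *Slc38a3* (ENSMUSG00000010064, chr9:107650634-107669530), which encodes a glutamine transporter of the plasma membrane, had 0.517, 0.0974, 0.259 and 0.253 CPM in IL-1β replicates 1 to 4 and 2.92, 2.8, 2.76 and 2.26 CPM in IL-1β plus butyrate replicates 1 to 4. The lowest library with butyrate was over 4 times the highest library without it (log2 fold change 3.26 ± 0.26 (SE), FDR = 4.8e-10). *Cd248* (chr19:5068078-5070682), the gene of the pericyte and stromal glycoprotein endosialin, went from 0.31, 0.389, 1.35 and 0.866 CPM to 6.29, 5.14, 6.31 and 6.12 CPM (log2 fold change 3.01 ± 0.22 (SE), FDR = 1.6e-10). *Lama5* (chr2:180176373-180225859), the laminin α5 chain of basement membranes, was tightly replicated, with 4.29, 3.75, 4.41 and 5.23 CPM in the IL-1β libraries and 24.4, 23.1, 23.2 and 26.8 CPM with butyrate (log2 fold change 2.45 ± 0.10 (SE), FDR = 2.2e-16). *Igf2* (chr7:142650766-142666816), insulin-like growth factor 2, had 2.33, 3.51, 5.03 and 5.52 CPM and then 20.9, 21.8, 21.2 and 25.5 CPM (log2 fold change 2.41 ± 0.19 (SE), FDR = 1.7e-07). The small heat shock protein gene *Hspb1* (chr5:135887919-135889563) had 0.517, 1.9, 1.66 and 1.19 CPM with IL-1β and 7.43, 6.96, 7.14 and 6.74 CPM with butyrate added (log2 fold change 2.42 ± 0.20 (SE), FDR = 7.9e-10). In each of these genes the 4 values of a condition lay closer to each other than to any value of the other condition.

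Other genes among the 15 largest rises were *Ache*, acetylcholinesterase, from a mean of 16.3 ± 1.3 CPM (SD, n = 4) to 80.1 ± 11 CPM, and *Gdf11*, a TGFβ family ligand, from 2.45 ± 0.31 to 12 ± 0.94 CPM. *Slco1a5*, an organic anion transporter gene, rose from 2.98 ± 0.39 to 13 ± 1.7 CPM, *Car11*, a carbonic anhydrase-related gene, from 3.04 ± 0.65 to 13.5 ± 1.5 CPM, and *Cavin1*, a coat protein of caveolae, from 1.41 ± 0.52 to 6.35 ± 0.28 CPM. *Pianp*, *Lingo3*, *B4galnt1* (ganglioside synthesis), *Mapk12* (a p38 kinase) and *Olfm2* completed the 15, with log2 fold changes of 3.08, 2.59, 2.14, 2.12 and 2.11. The FDR of the 15 genes ranged from 2.2e-16 (*Lama5*) to 1.7e-07 (*Igf2*).

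The largest falls were in dividing-cell genes and in a few genes of secretion and defence. *Nptx2* (chr5:144545902-144557478), a secreted neuronal pentraxin, had 81.3, 51.2, 26.4 and 25.8 CPM with IL-1β and 6.66, 4.67, 4.77 and 2.7 CPM with IL-1β plus butyrate (log2 fold change -3.26 ± 0.41 (SE), FDR = 6.2e-05). Its IL-1β libraries differed among themselves by over 3 times, and all lay above the libraries with butyrate. *Gpx2* (chr12:76792333-76795554), a glutathione peroxidase, went from 91.9, 111, 78.9 and 75.3 CPM to 11.8, 12.5, 10.6 and 10.8 CPM (log2 fold change -2.96 ± 0.12 (SE), FDR = 1.9e-10). *Npy* (chr6:49822710-49829507), neuropeptide Y, had 4.39, 4.04, 3.73 and 2.38 CPM and 0.487, 0.34, 0.745 and 0.53 CPM (log2 fold change -2.76 ± 0.33 (SE), FDR = 4.7e-06). *Fcrls* (chr3:87250758-87263738), a gene of microglia and tissue macrophages, had 7.24, 10.6, 13 and 13.3 CPM and 0.772, 0.382, 1.8 and 2.12 CPM (log2 fold change -3.15 ± 0.33 (SE), FDR = 3.7e-06). *Sulf1* (chr1:12692277-12861192), which encodes an enzyme that removes sulfate from heparan sulfate, had 44.8, 37.2, 25.3 and 32.3 CPM and 8.08, 7.94, 4.9 and 6.4 CPM (log2 fold change -2.35 ± 0.20 (SE), FDR = 9.0e-07). Of the 15 largest falls, 7 were genes of the cell cycle lists described next, and *Nek2*, *Pbk* and *Foxm1* are mitotic genes outside those lists, with log2 fold changes of -3.0, -2.67 and -2.61.

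**Figure D3:**
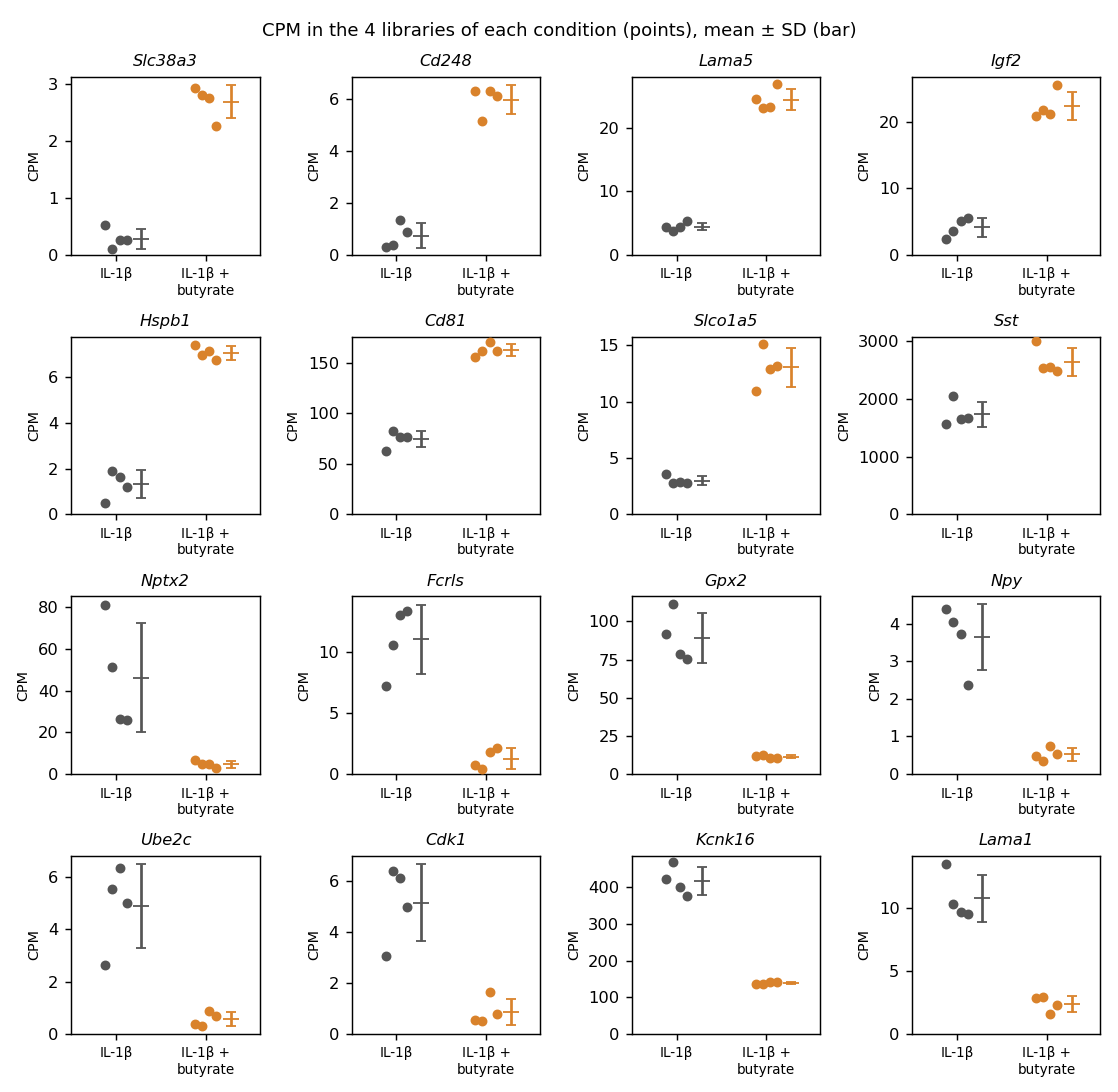
Panels show the CPM of 16 genes in the 4 IL-1β libraries (grey) and the 4 IL-1β plus butyrate libraries (orange), each point being 1 library and each bar the mean ± SD. In all 16 panels the libraries with and without butyrate do not overlap, which the rule for the largest rises and falls required of most of these genes. *Nptx2* ranges from 25.8 to 81.3 CPM among the IL-1β libraries.

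By p-value rather than size, the 10 leading genes included *Agap2*, *Kcnk16*, *Jph4*, *Dnm1*, *Cnih2*, *Col9a2* and *Cd81*. *Agap2* (chr10:127075284-127093169), a GTPase-activating protein, had 18.3, 18.8, 18.6 and 19.4 CPM with IL-1β and 73.2, 59, 62.1 and 62.9 CPM with butyrate added (log2 fold change 1.77 ± 0.06 (SE), FDR = 6.8e-17). *Kcnk16* (chr14:20261376-20269199), the islet potassium channel TALK-1 that carries a background current in beta cells, was abundant and fell to a level on which the 4 libraries with butyrate agreed within 7 CPM, from 424, 469, 400.1 and 377 CPM to 137, 136, 142 and 141 CPM (log2 fold change -1.59 ± 0.06 (SE), FDR = 1.3e-16). *Dnm1*, dynamin 1 of endocytosis, rose from 13.3 ± 2.3 to 54.6 ± 3.8 CPM and *Jph4*, a junctophilin, from 17.6 ± 2.6 to 56.9 ± 1.6 CPM. *Cd81*, a tetraspanin found on immature beta cells, rose from 74.5 ± 8.1 to 162 ± 6.1 CPM (log2 fold change 1.12 ± 0.06 (SE), FDR = 1.8e-13).

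A further 6 raised genes had at most 3 counts in every IL-1β library, so their folds are poorly measured. *Notum*, which encodes a secreted inhibitor of Wnt proteins, had no count in any IL-1β library and 8 to 14 counts with butyrate added, at least 3.84-fold higher against a level of 3 counts per library. For the 5 others the ratio of summed counts, scaled by library size, is given with its exact 95% binomial interval, which covers counting error only. *Efna3*, an ephrin ligand, had 6 counts with IL-1β and 64 with butyrate added, a ratio of 10.1 (4.39 to 28.5). *Srms* had 4 and 48 counts (11.4, 4.16 to 43.4), *Efs* 5 and 51 (9.65, 3.88 to 31), *1700001O22Rik* 7 and 58 (7.84, 3.57 to 20.4) and *Nxph4* 6 and 33 (5.2, 2.15 to 15.2). No lowered gene was at this level in all libraries with butyrate. These 6 genes were chosen after their values were seen. The kit and the counting are not stated to use strand, so reads of overlapping genes cannot be told apart, and 29 of the genes named in the text share over 5% of their exon length with another gene: *B4galnt1*, *Ube2c*, *Nek2*, *Ckap2l*, *Tmem255a*, *Stard5*, *E2f8*, *Csf1r*, *Psmb9*, *Nfkb2*, *Esyt3*, *Syt12*, *Syt4*, *P2ry1*, *Hdac11*, *Spp1*, *Egfl7*, *Bax*, *Dnaja1*, *Notum*, *Cdc25c*, *Cdkn1c*, *Efna3*, *Foxo1*, *Fstl3*, *Mmp11*, *Prdx2*, *Psmb8* and *Hspa1a*.

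Genes of mitosis and of the G2 and M phases were lower together. Progression through mitosis needs cyclin-dependent kinase 1, the anaphase-promoting complex, spindle kinesins and centromere proteins, whose genes are expressed late in the cell cycle and are known to carry a cell cycle homology region (CHR, TTTGAA) close to their start sites, often next to CCAAT boxes. These sequences are bound by the DREAM complex, MuvB, FOXM1 and NF-Y. Of 50 tested genes of this list 45 were lowered and 0 raised, against 11.1% and 8.41% of all tested genes, with a median log2 fold change of -1.37 against 0.012 over all genes. The 5 genes that were not called, *Kif18a*, *Kif23*, *Bub1b*, *Cdc25c* and *Espl1*, also had negative log2 fold changes, except that *Cdc25c* was at 0.0076 without IL-1β plus butyrate replicate 2. Because the RNA is from whole islets, fewer dividing cells and less of these transcripts per cell cannot be told apart.

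The 100 bases before the RefSeq start site are shown for 6 lowered mitotic genes, to show where the CHR and CCAAT letters lie. They were picked for holding both, and of the 40 mitotic genes with a window 10 held TTTGAA on either strand in these 100 bases, 24 held CCAAT and 7 held both. Coordinates are on GRCm38.p6, sequences are RefSeq, read 5′ to 3′ on the gene's strand, and capitals mark TTTGAA or CCAAT or their reverse complements TTCAAA and ATTGG. The windows are chr2:164769829-164769928 (plus strand) for *Ube2c*, chr2:129297213-129297312 (minus) for *Ckap2l*, chr10:69352913-69353012 (minus) for *Cdk1*, chr4:118437344-118437443 (minus) for *Cdc20*, chr11:99024190-99024289 (minus) for *Top2a* and chr19:37376282-37376381 (plus) for *Kif11*.
Ube2c: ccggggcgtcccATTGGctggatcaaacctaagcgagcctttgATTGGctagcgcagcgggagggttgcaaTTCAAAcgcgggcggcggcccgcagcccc
Ckap2l: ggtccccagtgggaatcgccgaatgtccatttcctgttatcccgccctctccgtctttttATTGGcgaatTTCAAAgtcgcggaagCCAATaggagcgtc
Cdk1: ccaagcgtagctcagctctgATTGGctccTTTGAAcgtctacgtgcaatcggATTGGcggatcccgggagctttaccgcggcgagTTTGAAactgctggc
Cdc20: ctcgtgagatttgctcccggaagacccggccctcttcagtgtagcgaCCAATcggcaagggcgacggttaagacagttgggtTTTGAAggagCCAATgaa
Top2a: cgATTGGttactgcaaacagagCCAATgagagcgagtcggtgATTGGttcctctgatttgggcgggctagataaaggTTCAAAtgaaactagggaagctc
Kif11: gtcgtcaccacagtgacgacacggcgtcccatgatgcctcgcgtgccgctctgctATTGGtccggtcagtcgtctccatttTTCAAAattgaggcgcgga

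*Ube2c*, the ubiquitin-conjugating enzyme of the anaphase-promoting complex, had 2.64, 5.55, 6.38 and 5.02 CPM with IL-1β and 0.365, 0.297, 0.876 and 0.674 CPM with IL-1β plus butyrate (log2 fold change -3.15 ± 0.38 (SE), FDR = 1.3e-05). *Cdk1*, the kinase that starts mitosis, had 3.05, 6.38, 6.12 and 4.98 CPM and 0.528, 0.509, 1.62 and 0.77 CPM (log2 fold change -2.58 ± 0.40 (SE), FDR = 2.0e-04). *Cdc20*, an activator of the anaphase-promoting complex, had 2.17, 4.24, 5.6 and 3.97 CPM and 1.02, 0.382, 0.788 and 0.674 CPM (log2 fold change -2.47 ± 0.37 (SE), FDR = 9.5e-05). IL-1β replicate 1 was the lowest IL-1β library for *Ube2c* and *Cdk1* and still above every library with butyrate. *Mki67*, the proliferation marker Ki-67, had 16.7, 26.6, 36.2 and 26.1 CPM and 2.56, 3.82, 7.36 and 6.16 CPM (log2 fold change -2.42 ± 0.42 (SE), FDR = 7.1e-04). *Ckap2l* and *Ckap2*, spindle proteins, had log2 fold changes of -2.7 and -2.45, *Cenpf* of the kinetochore -2.66, and *Top2a* and *Kif11*, a topoisomerase and a spindle motor named for their promoters after their values were seen, -1.83 and -1.77. The *Top2a* call was lost, at an edgeR FDR of up to 0.012, without IL-1β plus butyrate replicate 1 or 2. Summed over the list, CPM was 357, 435, 517 and 460 in IL-1β replicates 1 to 4 and 204, 208, 245 and 233 in IL-1β plus butyrate replicates 1 to 4.

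Of the 10022 tested genes with a 300-base RefSeq window (250 bases before to 50 after the start), 12.4% held TTTGAA on either strand, and 17.3% of all 16769 windows did. The letters were in 29 of the 40 mitotic genes with a window (72.5%), in 34.3% of 175 genes lowered at least 2-fold, in 14.6% of all lowered genes and in 10.4% of raised genes. Outside the cell cycle lists, 27% of 137 genes lowered at least 2-fold held them. That group still includes the mitotic gene *Nek2*, and its windows were poorer in CpG, with 43.8% of them under 10 CpG against 22.7% of all tested windows and a median GC content of 56% against 60.3%. Other letters rich in A and T were also more frequent there, TATAAA at 13.9% and TTTAAA at 13.1%. The CCAAT letters, on either strand, were in 38.7% of tested windows, 38.5% of all windows and 70.0% of the mitotic genes. Adjacent matches of different motifs can share bases and were each counted. GGGCGG, the GC box, was in 61.2% of tested windows, 42.8% of all windows, 71.1% of those of raised genes and 64.8% of those of lowered genes, but in 64% of those raised and 50.3% of those lowered at least 2-fold. The others of the 11 motifs searched on both strands included TATAAA (7.67% of tested windows), CACGTG (9.59%), TGANTCA (5.02%) and a κB-like pattern (26%). The rest were TTCNNNGAA (6.96%), TGACGTCA (3.16%), TTTCGCGC (0.549%) and TTTAAA (9.4%). In the order named, the shares of these other motifs in all 16769 windows were 13.8, 7.69, 7.31, 21.6, 8.19, 2.25, 0.352 and 12.5%. The κB-like pattern left its inner letters free and differs from the κB consensus of NF-κB. Its shares are therefore not those of consensus κB sites. A match of letters is a description of the window and shows no binding.

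The S phase followed with smaller changes. Of 46 tested genes of DNA replication 25 were lowered and 1, the uracil glycosylase gene *Ung* (0.61), was raised, with a median of -0.53. The shares over all tested genes were 11.1% lowered and 8.41% raised, here and for the lists that follow. *Mcm5*, a subunit of the replicative helicase, fell from 8.39 ± 1.1 to 2.92 ± 0.42 CPM (log2 fold change -1.52 ± 0.20 (SE), FDR = 1.4e-05), and *Pcna*, the sliding clamp, from 29.1 ± 2.2 to 20.8 ± 1.7 CPM (log2 fold change -0.49 ± 0.08 (SE), FDR = 3.8e-05). *Clspn* of the replication checkpoint had a log2 fold change of -1.85, and the recombination gene *Brca1* had -1.53. Among 26 genes of G1 cyclins, CDKs, their inhibitors and E2F factors 6 were lowered and 3 raised, the raised share being near that of all tested genes. *E2f8* (-1.59), *E2f7* (-1.0), *E2f2* (-0.86) and *E2f1* (-0.51) fell, as did the CDK inhibitor genes *Cdkn2c* (-0.74) and *Cdkn1a*, from 72.8, 70.4, 65.3 and 58.8 CPM to 48.8, 43.1, 39.8 and 37.6 CPM (log2 fold change -0.65 ± 0.08 (SE), FDR = 1.9e-06). *Cdkn1c*, which encodes the inhibitor p57, rose from only 0.168 ± 0.05 to 0.832 ± 0.19 CPM (log2 fold change 2.24 ± 0.39 (SE), FDR = 7.6e-05), levels at which the counts are few. *Cdk2* rose by 0.54 on the log2 scale. Without IL-1β plus butyrate replicate 1, 1 gene of this list was raised. Immediate early genes, which respond to mitogens and activity, had 5 of 18 lowered and 0 raised. *Egr1* went from 30.1, 24, 20.6 and 21 CPM to 8.57, 8.23, 6.92 and 7.75 CPM (log2 fold change -1.6 ± 0.22 (SE), FDR = 9.2e-05) and *Fosb* from 5.77 ± 1.7 to 2.03 ± 0.24 CPM (log2 fold change -1.49 ± 0.18 (SE), FDR = 8.7e-07).

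Without IL-1β, butyrate lowered 49 of the 50 mitotic genes and 36 of the 46 S phase genes, with medians of -1.90 and -0.84, where it lowered 11.4% of all tested genes. *Cdk1* had a log2 fold change of -2.68 without IL-1β and -2.58 with it, and *Mki67* of -3.26 and -2.42. Neither difference passed the test of the difference (FDR = 0.99 and 0.89).

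**Figure D4:**
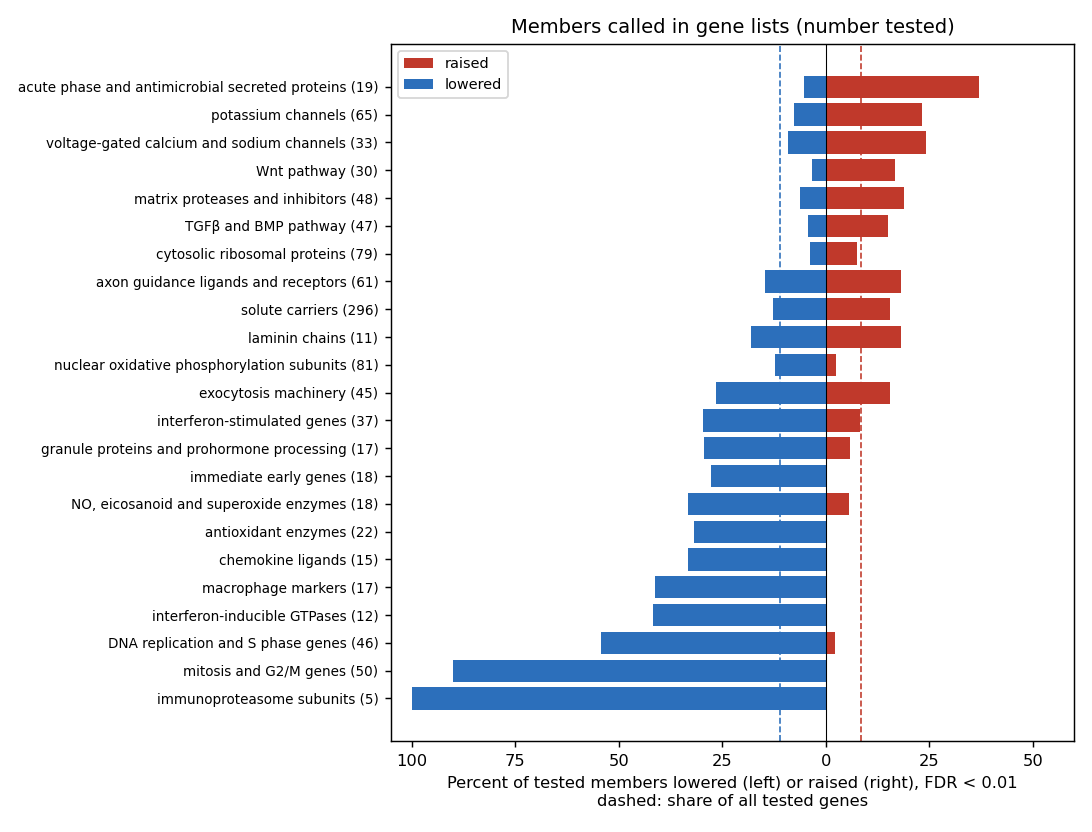
Bars give the percent of tested members lowered (blue, left) and raised (red, right) at an FDR under 0.01 for 23 gene lists, picked for display after their values were seen, with the number tested in brackets, and dashed lines give the shares over all tested genes, 11.1% and 8.41%. All 5 immunoproteasome subunits and 45 of 50 mitotic genes are lowered, and the acute phase list has 7 of 19 raised.

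Macrophage markers were lower with butyrate. Islet macrophages take up insulin granules and debris and are a main source of cytokines in the islet. All 17 tested markers had a negative log2 fold change, with a median of -0.80, and 7 were called lowered, where 11.1% of all tested genes were. Summed over the list, CPM was 143, 186, 207 and 267 in IL-1β replicates 1 to 4 and 66.2, 85.2, 124 and 144 in IL-1β plus butyrate replicates 1 to 4, so that the ranges overlapped, against 32.8 to 47.3 in control islets. IL-1β replicate 1 had the lowest sum of its condition, and without it 10 of the 17 markers were lowered. The number was 4 without IL-1β plus butyrate replicate 1, the library with the lowest sum of its condition, and 3 in a fit of the 8 compared libraries only. *Adgre1*, the gene of F4/80, had 6.82, 8.57, 10.3 and 13.3 CPM with IL-1β and 2.11, 3.99, 4.55 and 5.87 CPM with butyrate added (log2 fold change -1.27 ± 0.28 (SE), FDR = 0.0031). *Tyrobp*, an adaptor of myeloid receptors, had 4.81, 5.55, 5.65 and 7.18 CPM and 1.99, 2.38, 3.63 and 3.13 CPM (log2 fold change -1.08 ± 0.16 (SE), FDR = 1.3e-05). *Fcer1g* (-0.80), *Mpeg1* (-1.01), *Cd68* (-0.72) and *Fcgr3* (-0.69, named after its value was seen) were also lowered, the last 2 with overlapping conditions. The *Mpeg1* call was lost in 7 of 17 alternatives. *Lyz2* had 35.6, 50.2, 45.8 and 60.8 CPM with IL-1β and 13.6, 21.8, 31.7 and 30 CPM with butyrate (log2 fold change -1.0, FDR = 0.012), and *Csf1r*, the receptor of the macrophage growth factor, had 11.7, 11.3, 15.5 and 19.6 and 6.38, 7.81, 12.2 and 15.4 CPM (-0.50, FDR = 0.17), and neither was called. Without IL-1β 0 of the 17 markers was called, with a median of -0.53, at the lower levels of those islets.

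Of the lists of inflammatory signalling, those of chemokine ligands, interleukins, interferon-stimulated genes and inflammatory enzymes had more members lowered than raised, as did all tested genes (11.1% lowered, 8.41% raised), and the TNF family did not. Macrophage markers moved in the same libraries, and their part in the following results was not tested. Of 15 chemokine ligand genes 5 were lowered and 0 raised. *Cxcl1*, which attracts neutrophils, had 26.5, 26.4, 27.6 and 26.4 CPM with IL-1β and 8.04, 13.6, 8.63 and 8.86 CPM with IL-1β plus butyrate (log2 fold change -1.45 ± 0.16 (SE), FDR = 6.7e-06), and *Ccl20* had 7.03, 7.94, 5.65 and 5.12 and 2.96, 4.58, 2.58 and 2.65 CPM (log2 fold change -1.0 ± 0.18 (SE), FDR = 2.0e-04). The control islets had 0.32 ± 0.092 CPM of *Cxcl1* and 0.0107 ± 0.021 CPM of *Ccl20*, so both stayed above control with butyrate. *Nos2* (chr11:78920787-78960254), inducible nitric oxide synthase, had 1.76, 1.27, 2.28 and 2.09 CPM and 0.122, 0.382, 0.131 and 0.193 CPM (log2 fold change -3.13 ± 0.40 (SE), FDR = 1.1e-06). *Ptgs2*, cyclooxygenase 2, had 3, 2.39, 1.92 and 1.52 CPM and 0.893, 0.552, 1.45 and 0.915 CPM (log2 fold change -1.19 ± 0.31 (SE), FDR = 0.0054), a call lost in 5 of 17 alternatives, and *Cybb*, the phagocyte NADPH oxidase subunit, 10.4, 13.3, 13.1 and 17.9 and 3.74, 4.88, 7.93 and 7.99 CPM (log2 fold change -1.18 ± 0.21 (SE), FDR = 7.1e-04). These belong to a list of 18 enzymes of nitric oxide, prostaglandin, leukotriene and superoxide synthesis with 6 lowered, 3 without IL-1β plus butyrate replicate 2, and 1 raised, *Alox12* (0.89).

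*Il1b*, interleukin-1β itself, had 5.89, 5.4, 4.09 and 3.61 CPM with IL-1β and 1.38, 1.53, 2.15 and 2.07 CPM with butyrate added (log2 fold change -1.41 ± 0.19 (SE), FDR = 1.9e-06), and among 43 interleukin and interleukin receptor genes 8 were lowered and 3 raised, the latter being *Il11* (0.72), *Il1rap* (0.48) and *Il11ra1* (0.45). Of 35 TNF family ligands, receptors and TRAF adaptors 3 were raised, *Tnfrsf22* (0.58), *Tnfrsf11a* (0.25) and *Traf2* (0.20), and 2 lowered, *Tnfrsf1b* (-0.78) and *Tnfrsf9* (-0.58), and only 1 was raised when any library but IL-1β replicate 1 was left out. The *Tnfrsf11a*, *Traf2* and *Tnfrsf1b* calls were lost in 12, 9 and 6 of 17 alternatives. The share of this family raised was near the 8.41% of all tested genes. Of 17 genes for NF-κB subunits and inhibitors 3 were lowered and 2 raised, and 2 were lowered and 3 raised with upper-quartile scaling. Without IL-1β plus butyrate replicate 1, 5 were lowered. *Nfkb2* and *Relb*, the subunits of the non-canonical pathway, had log2 fold changes of -0.53 (FDR = 9.3e-05) and -0.54 (FDR = 1.2e-05). Among 37 interferon-stimulated genes 11 were lowered and 3 raised, the latter falling to 1 without IL-1β replicate 1, 3 or 4 or without IL-1β plus butyrate replicate 2 or 4, with *Irf7* falling from 3.91 ± 0.7 to 2.05 ± 0.33 CPM (log2 fold change -0.93 ± 0.17 (SE), FDR = 1.2e-04) and *Ifit2* rising by 1.28. Among 12 interferon-inducible GTPases 5 were lowered and 0 raised, with *Gbp2* at 3.13 ± 0.33 and 1.62 ± 0.14 CPM (log2 fold change -0.95 ± 0.20 (SE), FDR = 5.0e-04).

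All 5 immunoproteasome subunits were lowered. Immunoproteasomes replace the catalytic subunits of the constitutive proteasome in cells exposed to cytokines and cut peptides for MHC class I. *Psmb10* had 36.1, 38.8, 30.8 and 32.4 CPM with IL-1β and 15.5, 15.6, 13.7 and 15.7 CPM with butyrate (log2 fold change -1.19 ± 0.07 (SE), FDR = 3.2e-12), and the mean of the control islets was 13.3 ± 0.75 CPM. *Psmb9*, *Psmb8*, *Psme1* and *Psme2* had log2 fold changes of -0.50, -0.40, -0.38 and -0.34. Of 31 constitutive proteasome subunits 7 were lowered and 0 raised, and 30 of the 31 had negative log2 fold changes, with a median of -0.15. The count of 7 rested on single libraries and on the scaling: it was 4 without IL-1β replicate 2, 17 without IL-1β replicate 4, 11 without IL-1β replicate 3 or IL-1β plus butyrate replicate 2, 4 without IL-1β plus butyrate replicate 3, and 2 with upper-quartile scaling or the 8 libraries only. In islets without IL-1β butyrate lowered 4 of the 5 immunoproteasome subunits, with a median of -0.36 against -0.40 with IL-1β. Among them was *Psmb10* (-1.49, FDR = 5.3e-12), and *Psmb9* was not called there (-0.36, FDR = 0.011).

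Against this direction, 7 of 19 tested acute phase and antimicrobial genes were raised and 1, *Ltf*, lowered, where 8.41% and 11.1% of all tested genes were. These genes encode secreted proteins that liver and epithelia release in inflammation and that IL-1β induces through NF-κB and C/EBP factors. *Saa3*, a serum amyloid A protein, had 73.9, 75.6, 48.2 and 61.9 CPM with IL-1β and 131, 129.6, 83.6 and 121 CPM with IL-1β plus butyrate (log2 fold change 0.84 ± 0.16 (SE), FDR = 0.0015). *Slpi*, a protease inhibitor, had 2.79, 7.4, 4.15 and 6.24 CPM and 8.12, 17.4, 11.8 and 22.1 CPM (log2 fold change 1.5 ± 0.31 (SE), FDR = 0.0026), and *Lbp*, which carries bacterial lipopolysaccharide, had 0.879, 0.974, 1.19 and 1.3 and 1.71, 2.16, 2.93 and 2.55 CPM (log2 fold change 1.08 ± 0.22 (SE), FDR = 4.2e-04). *Orm1*, *Saa2*, *Wfdc2* and *Saa1* had log2 fold changes of 2.61, 3.11, 2.04 and 1.9, at means of 4 CPM or less. *Saa1* and *Saa2* are near-identical copies and their reads may be split wrongly between them. *Lcn2*, lipocalin 2, was the most abundant of the list with 808, 1645, 1241 and 1762 CPM and 1661, 2641, 2178 and 3238 CPM. Its conditions overlapped and it was not called (log2 fold change 0.83, FDR = 0.09). The list summed to 1084, 1988, 1587 and 2262 CPM in IL-1β replicates 1 to 4 and to 2138, 3135, 2579 and 3889 CPM with butyrate added, against 7.82 to 14 CPM in control islets. IL-1β replicate 1 was the lowest library here too, and *Saa1*, *Saa2*, *Wfdc2* and *Ltf* were named after their values were seen. *C3*, the central complement component, rose in the same way, from 149.6, 248, 226 and 242 CPM to 292, 419.9, 345 and 396 CPM (log2 fold change 0.75 ± 0.15 (SE), FDR = 0.0024), while the C1q genes fell, *C1qa* from 79.7 ± 12 to 51.2 ± 5.5 CPM (log2 fold change -0.63 ± 0.12 (SE), FDR = 0.0014) and *C1qc* from 20.9 ± 4.9 to 10.7 ± 3.8 CPM (log2 fold change -0.98 ± 0.21 (SE), FDR = 0.0035). C1q is made mainly by macrophages. Without IL-1β 0 of the 19 acute phase genes was called, and the test of the difference called none of the genes named in this paragraph.

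Ion channels were raised more often than lowered. Beta cells close ATP-sensitive potassium channels when glucose rises, depolarize, open voltage-gated calcium channels and release insulin. Of 65 potassium channel genes 15 were raised and 5 lowered, with a median of 0.17, and of 33 calcium and sodium channel genes 8 were raised and 3 lowered, with a median of 0.31. Over all tested genes 8.41% were raised and 11.1% lowered. *Kcnj11* and *Abcc8*, the pore and the sulfonylurea receptor of the ATP-sensitive channel, had small rises. *Kcnj11* had 122, 110.4, 118 and 117 CPM with IL-1β and 143, 128, 143 and 130.1 CPM with butyrate (log2 fold change 0.22 ± 0.05 (SE), FDR = 6.1e-04), and *Abcc8* had 2081, 1855, 1889 and 2015 CPM and 2489.6, 2155, 2248 and 2301 CPM (log2 fold change 0.23 ± 0.05 (SE), FDR = 0.0015). *Kcna7*, a voltage-gated channel, rose from 0.542 ± 0.094 to 3.05 ± 0.37 CPM (log2 fold change 2.48 ± 0.25 (SE), FDR = 1.6e-08), and *Kcnt1*, a sodium-activated channel, from 1.83 ± 0.57 to 5.59 ± 0.52 CPM (log2 fold change 1.58 ± 0.20 (SE), FDR = 2.1e-06). The 5 lowered channels were *Kcnk13* (-2.18), *Kcnt2* (-1.86), *Kcnk16* (-1.59), *Kcnn2* (-1.07) and *Kcnb2* (-0.82). Summed over the list, potassium channel CPM was lower with butyrate, 1369 to 1509 against 1579 to 1699 in the IL-1β libraries, so the count of members and the summed level went in opposite directions, *Kcnk16* being among the most abundant members.

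Of the calcium and sodium channels, *Cacna1g*, a T-type calcium channel, had 29.7, 27.2, 28.2 and 42.7 CPM with IL-1β and 56.5, 46.2, 53.1 and 61.5 CPM with butyrate added (log2 fold change 0.75 ± 0.13 (SE), FDR = 4.5e-04). *Cacna1f*, an L-type channel, rose from 2.13 ± 0.65 to 4.88 ± 0.73 CPM (log2 fold change 1.15 ± 0.17 (SE), FDR = 9.7e-06), and *Cacng7*, *Scn2a* and *Scn3b* rose by 2.55, 0.80 and 0.58 on the log2 scale. *Scn9a*, a sodium channel, fell from 91.8 ± 2.4 to 69.8 ± 3.9 CPM (log2 fold change -0.40 ± 0.05 (SE), FDR = 8.2e-07).

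The exocytosis machinery went both ways, with 7 of 45 genes raised, 3 without IL-1β plus butyrate replicate 1, and 12 lowered. Over all tested genes 8.41% were raised and 11.1% lowered. Insulin granules fuse when SNARE proteins of the syntaxin and SNAP25 families on the plasma membrane pair with VAMP proteins on the granule, under calcium sensors of the synaptotagmin family. *Rims1*, a scaffold of release sites, had 0.672, 1.02, 0.726 and 1.12 CPM with IL-1β and 1.71, 2.46, 2.41 and 2.46 CPM with butyrate (log2 fold change 1.32 ± 0.23 (SE), FDR = 5.8e-05). *Stx1a*, *Snap25* and *Snap23* rose by 0.33, 0.21 and 0.20 on the log2 scale. On the other side, *Sytl4*, granuphilin, which docks granules, had 311, 256, 241 and 211 CPM and 171, 180.2, 159 and 133 CPM (log2 fold change -0.66 ± 0.13 (SE), FDR = 0.0013). *Rab27b* (-0.89), *Erc2* (-0.46), *Nsf* (-0.31) and *Cadps2* (-0.31) fell too. Of 18 synaptotagmins, *Esyt3* (1.08), *Syt12* (0.99), *Syt16* (0.52) and *Syt3* (0.42) rose. *Syt5*, present on dense core granules, fell from 98.3 ± 10.1 to 61.5 ± 4.8 CPM (log2 fold change -0.68 ± 0.08 (SE), FDR = 2.0e-06), and *Syt4* had 292, 245, 242 and 221 CPM and 215, 229, 204 and 199 CPM, with overlapping libraries (log2 fold change -0.24 ± 0.07 (SE), FDR = 0.0074), a call lost in 6 of 17 alternatives. Among 61 axon guidance genes 11 were raised and 9 lowered, and 17 and 5 with upper-quartile scaling. *Sema4g* rose from 4.74 ± 0.6 to 15.5 ± 1.7 CPM (log2 fold change 1.69 ± 0.10 (SE), FDR = 8.5e-13) and *Plxnc1*, a semaphorin receptor, fell from 2.72 ± 0.62 to 1 ± 0.2 CPM (log2 fold change -1.46 ± 0.23 (SE), FDR = 2.5e-05).

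Solute carriers changed in both directions, 46 of 296 raised and 38 lowered (55 and 30 with upper-quartile scaling), with a median of 0.043, so that the share lowered was near the 11.1% of all tested genes and the share raised above their 8.41%. Among 35 amino acid transporters 5 were raised and 7 lowered, and the members of the SLC38 family moved apart. *Slc38a3* rose by 3.26, whereas *Slc38a5*, another transporter of glutamine, had 127, 125, 132 and 109.9 CPM with IL-1β and 45, 46.9, 64 and 43 CPM with butyrate added (log2 fold change -1.31 ± 0.12 (SE), FDR = 2.6e-06), and *Slc38a4* fell from 503 ± 42 to 319.7 ± 21 CPM (log2 fold change -0.65 ± 0.06 (SE), FDR = 2.2e-09). *Slc7a5*, a subunit of a transporter of branched-chain and aromatic amino acids, rose from 220.1 ± 9.4 to 327 ± 9 CPM (log2 fold change 0.57 ± 0.04 (SE), FDR = 1.1e-10), and its partner *Slc3a2* by 0.23. Of 45 ABC transporters 4 were raised, 2 without IL-1β plus butyrate replicate 1, and 11 lowered.

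Matrix and growth factor genes changed in small numbers, with large changes in a few. Over all tested genes 8.41% were raised and 11.1% lowered. The islet basement membrane, made by endothelial cells, holds laminins and collagen IV that beta cells bind through integrins. Of 11 laminin chains *Lama5* and *Lamb2* (1.28) rose and *Lama1* and *Lamb3* (-0.68) fell. *Lama1* (chr17:67697259-67822647), the α1 chain, had 13.5, 10.3, 9.64 and 9.53 CPM with IL-1β and 2.8, 2.89, 1.53 and 2.31 CPM with butyrate (log2 fold change -2.16 ± 0.15 (SE), FDR = 3.0e-11), opposite to *Lama5*. Of 41 collagens 3 were raised, among them *Col9a2* from 6.01 ± 1.2 to 21.8 ± 1.7 CPM (log2 fold change 1.86 ± 0.10 (SE), FDR = 9.9e-14), and 1, *Col6a3*, was lowered, from 7.77 ± 1.8 to 3.24 ± 0.56 CPM (log2 fold change -1.25 ± 0.18 (SE), FDR = 2.9e-05). Neither share of the collagens was above that of all tested genes. Among 17 claudins and tight junction genes 6 were lowered and 2 raised, with *Cldn1* going from 4.55, 3.41, 2.02 and 2.42 CPM to 0.853, 1.1, 0.657 and 0.53 CPM (log2 fold change -1.95 ± 0.33 (SE), FDR = 1.2e-04). Among 48 matrix proteases and inhibitors 9 were raised and 3 lowered, 5 without IL-1β plus butyrate replicate 4, with *Mmp11* (2.38), *Mmp9* (1.69) and *Mmp13* (1.17) rising. *Itgb2*, the leukocyte integrin subunit, fell from 4.47 ± 1.1 to 2.67 ± 0.65 CPM with overlapping libraries (log2 fold change -0.76 ± 0.18 (SE), FDR = 0.0021).

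Of 30 Wnt pathway genes 5 were raised and 1 lowered, where 8.41% and 11.1% of all tested genes were. *Wnt10b*, a ligand, had 1.09, 0.876, 0.57 and 0.938 CPM with IL-1β and 4.95, 3.31, 4.34 and 3.37 CPM with IL-1β plus butyrate (log2 fold change 2.19 ± 0.21 (SE), FDR = 9.9e-09), and the receptor gene *Fzd4* had 2.22, 2.97, 3.01 and 2.81 and 5.16, 5.81, 8.15 and 5.92 CPM (log2 fold change 1.18 ± 0.21 (SE), FDR = 2.6e-04). *Fzd2* (1.93), the co-receptor *Lrp5* (0.63) and *Wnt4* (0.39) rose, and *Sfrp5*, a secreted inhibitor, fell (-0.31). Of 47 TGFβ and BMP genes 7 were raised and 2 lowered. *Tgfb1* had 6.31, 6.38, 4.72 and 6.86 CPM and 13.7, 13.8, 12.1 and 14.8 CPM (log2 fold change 1.16 ± 0.10 (SE), FDR = 2.4e-09). With *Gdf11*, the inhibitor *Fstl3* (1.83) and the receptors *Acvr1c* (0.95), *Acvr1b* (0.38) and *Acvr1* (0.25) rose, and *Bmpr1b* (-1.01) fell.

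The islet hormones changed little next to these genes. *Ins2* had 89499, 99883, 89154 and 73648 CPM with IL-1β and 86982, 99428, 91612 and 75756 CPM with butyrate added, and was not called (log2 fold change 0.01 ± 0.08 (SE), FDR = 0.96). *Ins1* had 44726, 46449, 42735 and 37746 CPM and 32501, 34472, 33304 and 29524 CPM, lower in all libraries with butyrate (log2 fold change -0.40 ± 0.07 (SE), FDR = 6.3e-05). *Gcg*, glucagon, had 24925, 20985, 19577 and 19550.4 CPM and 24777, 24365, 27313 and 24947 CPM. These values overlapped, and the call (log2 fold change 0.25 ± 0.07 (SE), FDR = 0.0087) was lost in 8 of 17 alternatives. *Sst*, somatostatin of delta cells, had 1567, 2055, 1657 and 1661 CPM and 2998, 2534, 2551 and 2479 CPM without overlap (log2 fold change 0.61 ± 0.08 (SE), FDR = 1.0e-05). *Ppy*, pancreatic polypeptide, had 1128, 1412, 1136 and 1015 CPM and 1887, 1816, 1874 and 1354 CPM (log2 fold change 0.56, FDR = 0.015), and *Iapp*, amylin, 27034 ± 3014 and 30749 ± 2602 CPM (log2 fold change 0.19, FDR = 0.047), and neither was called.

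Of 13 beta cell markers 2 were lowered and 0 raised, *Mafa*, a transcription factor of mature beta cells (log2 fold change -0.77), and *Ins1*. For comparison, 11.1% of all tested genes were lowered and 8.41% raised. The lowered shares of this list and of the islet transcription factors below were little above that of all tested genes. The *Mafa* call was lost in 7 of 17 alternatives. Of 7 alpha cell markers 4 were lowered, namely *Gc* (279 ± 31 to 168 ± 23 CPM, -0.73), *Ttr* (683 ± 79 to 415 ± 51 CPM, -0.72), *Irx1* (-0.54) and *Irx2* (-0.39), while *Gcg* was higher, so the alpha cell list did not move as a whole. Of 5 delta cell markers *Sst* rose and 0 fell, and 0 of 2 PP cell markers was called. Among 20 islet transcription factors 3 were lowered, *Mafa*, *Hnf4a* (-0.41) and *Isl1* (-0.23), and *Foxo1* (0.28) was raised, and 3 were raised with upper-quartile scaling. *Aldh1a3*, a gene of dedifferentiated beta cells, had 9.82, 14.2, 9.74 and 10.8 CPM with IL-1β and 32.1, 41, 40.4 and 36.5 CPM with butyrate (log2 fold change 1.75 ± 0.29 (SE), FDR = 6.1e-04). It is on a list of 9 dedifferentiation and progenitor genes, of which 2 were raised, *Aldh1a3* and *Cd81*, and 2 lowered. The median of that list was -0.12, so it did not move as a whole. Of 17 granule and prohormone processing genes 5 were lowered and 1 raised. *Pcsk2*, a proinsulin and proglucagon convertase, had 4805, 4613, 4163 and 4179.8 and 3609, 3516, 3572 and 3544 CPM (log2 fold change -0.32 ± 0.05 (SE), FDR = 2.6e-05), *Cpe*, carboxypeptidase E, fell from 8765 ± 835 to 7202 ± 273 CPM (log2 fold change -0.28 ± 0.06 (SE), FDR = 6.9e-04) and *Chga*, chromogranin A, rose from 6061 ± 387 to 7802 ± 813 CPM (log2 fold change 0.36 ± 0.06 (SE), FDR = 5.5e-05). The granins *Chgb* and *Scg2* were not called (log2 fold changes 0.27 and 0.09, FDR = 0.14 and 0.29).

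Among the other cells a library can hold, 1 of 9 endothelial markers was raised, *Egfl7* (1.9 ± 0.49 to 5.45 ± 0.4 CPM, 1.5), and the list summed to 13.8 to 23.4 CPM with IL-1β and 23.8 to 31.4 CPM with butyrate. Of 12 fibroblast and stellate cell markers 0 was called (8.08 to 20.2 and 10.6 to 28.9 CPM in sum). Of 10 acinar markers 1, *Cela1* (-0.83), was lowered (149.7 to 161 and 149.6 to 161 CPM in sum), and of 6 duct markers 1, *Krt7*, from 394 ± 28 to 338 ± 18 CPM. Of 4 T cell markers *Lck* (1.23) was raised, of 6 Schwann cell markers 1 was raised, and the 1 B cell marker tested was not called. Against the 8.41% raised and 11.1% lowered of all tested genes, a single call in lists this short is no result about a cell type. *Spp1*, osteopontin, had 96.4, 160.1, 169 and 207 CPM with IL-1β and 192, 361, 381 and 459.7 CPM with butyrate and was not called (log2 fold change 1.13, FDR = 0.014).

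Of 24 receptors for hormones, nutrients and fatty acids 2 were raised and 4 lowered, where 8.41% and 11.1% of all tested genes were. With upper-quartile scaling 3 were called each way. *Sstr5*, a somatostatin receptor, fell by 2.73 on the log2 scale, and *P2ry1*, a receptor for ADP, had 119, 81.5, 74.3 and 64.7 CPM with IL-1β and 43.7, 36.3, 30.6 and 26.9 CPM with butyrate (log2 fold change -1.3 ± 0.22 (SE), FDR = 6.5e-04). *Ffar2*, a receptor of butyrate, had 45.5, 46.5, 40.7 and 36.1 CPM and 53.2, 55.6, 48.8 and 45.3 CPM with overlapping libraries (log2 fold change 0.27 ± 0.07 (SE), FDR = 0.0029), a call lost in 5 of 17 alternatives.

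Among genes of chromatin, 3 of 18 histone deacetylases and sirtuins were raised, 1 without IL-1β replicate 1 or 3 or IL-1β plus butyrate replicate 3, and 2 lowered. The share lowered was near the 11.1% of all tested genes. *Hdac6* had 200.1, 183, 191 and 198 CPM with IL-1β and 169.7, 149, 167 and 163 CPM with butyrate (log2 fold change -0.25 ± 0.05 (SE), FDR = 2.1e-04), *Hdac11* rose by 0.21, in a call lost in 4 of 17 alternatives, *Sirt4* rose by 0.58, and *Sirt1* fell by 0.40 on the log2 scale. Of 15 histone acetyltransferases and acetyl-lysine readers *Ncoa3* (0.40) and *Kat8* (0.20, a call lost in 9 of 17 alternatives) were raised and *Kat2b* (-0.46) and *Kat6b* (-0.35) lowered. Of 34 histone genes 9 were lowered and 2 raised, where 11.1% and 8.41% of all tested genes were. The 9 became 4 without IL-1β plus butyrate replicate 1 or with the 8 libraries only, and 5 without IL-1β replicate 2 or IL-1β plus butyrate replicate 2. *H1f0*, the linker histone of non-dividing cells that is known to respond to deacetylase inhibitors, had 171, 186, 165 and 164 CPM and 230.2, 254, 224 and 219 CPM (log2 fold change 0.44 ± 0.05 (SE), FDR = 3.8e-07), and *Hist1h3d*, a replication-dependent histone H3 gene, fell from 1.85 ± 0.19 to 0.996 ± 0.13 CPM (log2 fold change -0.88 ± 0.21 (SE), FDR = 0.0016).

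Of 22 antioxidant enzymes 7 were lowered and 0 raised, where 11.1% and 8.41% of all tested genes were. *Gpx2* was by far the largest, and *Sod1*, superoxide dismutase 1, had 172, 203, 162 and 158 CPM with IL-1β and 123, 136, 128 and 125 CPM with butyrate (log2 fold change -0.44 ± 0.07 (SE), FDR = 1.4e-05). The peroxiredoxins *Prdx1*, *Prdx2* and *Prdx4* had log2 fold changes of -0.28, -0.27 and -0.24. Of 22 NRF2 pathway genes 6 were lowered and 2 raised, *Gsta4* (1.53) and *Slc7a11* (0.49). Of 81 nuclear genes of oxidative phosphorylation 10 were lowered and 2 raised, a lowered share near the 11.1% of all tested genes, and 63 of the 81 had negative log2 fold changes, with a median of -0.11. Here too the number lowered rested on single libraries and on the scaling, with 4 without IL-1β replicate 2 or IL-1β plus butyrate replicate 1, 6 without IL-1β plus butyrate replicate 4, 17 without IL-1β replicate 4, 3 with the 8 libraries only and 2 with upper-quartile scaling. *mt-Co1* was not called (log2 fold change -0.17, FDR = 0.012). *Pdk4*, which inhibits pyruvate dehydrogenase, had 24.5, 24.4, 26 and 26.2 CPM and 41.6, 42.1, 50 and 45.2 CPM (log2 fold change 0.82 ± 0.06 (SE), FDR = 3.0e-10). Of 29 genes of ER stress and folding 7 were raised and 5 lowered. Leaving out 1 library gave as few as 2 raised (without IL-1β replicate 4), 3 (without IL-1β replicate 3 or IL-1β plus butyrate replicate 2 or 3) or 4 (without IL-1β plus butyrate replicate 1), and 2 lowered without IL-1β replicate 2 or 11 without IL-1β replicate 4. The chaperone genes *Hspa5* (-0.28) and *Sdf2l1* (-0.60) fell and *Trib3* (0.54), *Chac1* (0.40) and *Ddit3* (0.26), genes of the ATF4 branch, rose. Of 79 cytosolic ribosomal protein genes 6 were raised and 3 lowered, shares below the 8.41% and 11.1% of all tested genes. The number raised was 14 with upper-quartile scaling and 1 to 19 when 1 library was left out, with 19 without IL-1β replicate 2 and 1 without IL-1β plus butyrate replicate 2. Medians as small as those of this paragraph and the 2 before it move with the scaling, which shifted all genes by about 0.05.

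The effect of butyrate in islets without IL-1β gave a second measurement, since the 4 butyrate and the 4 control libraries are in neither condition compared so far. Butyrate without IL-1β changed 3697 genes (19.9%), 1585 raised (8.53%) and 2112 lowered (11.4%). In both settings 2503 genes were called in the same direction, 1065 raised and 1438 lowered, which is 69.0% of the genes called with IL-1β and 67.7% of those called without it. Only 3 genes were called in opposite directions, *Stard5*, *Alcam* and *Aqp4*. Of the genes called with IL-1β 97.5% had the same sign without it, against 78.8% of all tested genes. Over the 12693 genes with an average log2 CPM of at least 1 the log2 fold changes correlated with r = 0.87, and among the genes called in both settings the median ratio of the effect with IL-1β to that without was 0.97. This correlation is over genes, which are not independent replicates.

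**Figure D5:**
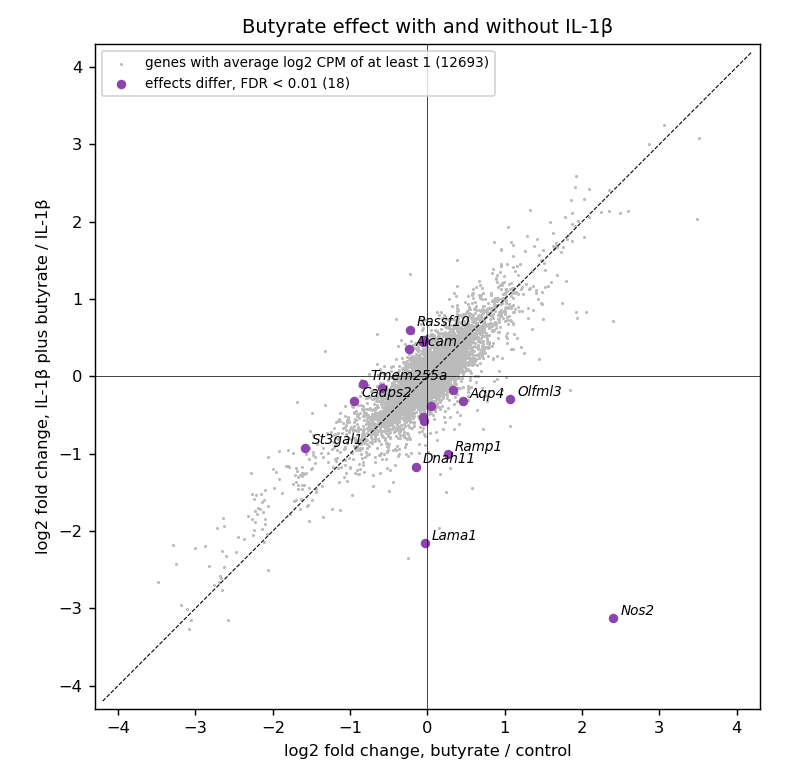
Each point is a gene with an average log2 CPM of at least 1, with the log2 fold change of butyrate over control on the x axis and of IL-1β plus butyrate over IL-1β on the y axis, and the dashed line marks equal effects. Most genes lie along the line, and the 18 genes whose effects differ at an FDR under 0.01 are in purple, *Nos2* (which has a lower average than the other points) and *Lama1* lying furthest below the line.

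The test of the difference between both butyrate effects called 18 genes (0.0968% of those tested), 8 with a higher and 10 with a lower effect in the presence of IL-1β. At an unadjusted p under 0.05 there were 1362 genes (7.33%), and 14 of the 18 were called in the comparison with IL-1β. With a replicate block in the fit the test called 132 genes, so the number depends on whether libraries are paired by their number. *Nos2* had means of 0.0346 ± 0.045 CPM in control, 0.204 ± 0.21 in butyrate, 1.85 ± 0.45 in IL-1β and 0.207 ± 0.12 CPM in IL-1β plus butyrate islets, and a difference of -5.53 ± 0.94 on the log2 scale (FDR = 0.0044). *Lama1* had 1.33 ± 0.19, 1.3 ± 0.17, 10.7 ± 1.9 and 2.38 ± 0.62 CPM in the same order, so its fall with butyrate was seen where IL-1β had raised it (difference -2.13 ± 0.27, FDR = 1.5e-04). *Ramp1*, a subunit of receptors of the calcitonin family, had 2.45 ± 0.33, 2.97 ± 0.42, 5.61 ± 1.2 and 2.79 ± 0.27 CPM (difference -1.27 ± 0.22, FDR = 0.0045). *Dnah11*, an axonemal dynein, had 4.94 ± 0.71, 4.44 ± 0.46, 10.9 ± 1.2 and 4.85 ± 0.43 CPM (difference -1.02 ± 0.16, FDR = 0.0019). *Itgb8*, an integrin subunit that activates TGFβ, had 18.4 ± 1.1, 17.9 ± 0.97, 84.8 ± 6.8 and 57 ± 3.6 CPM (difference -0.53).

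*Aqp4*, a water channel, fell when butyrate joined IL-1β (-0.32, FDR = 0.004) and rose without it (0.46, FDR = 0.0016), and *Alcam*, an adhesion molecule, rose with IL-1β (0.35, FDR = 1.1e-05) and fell without it (-0.24, FDR = 0.0011). *Alcam* had 336, 303, 309.5 and 315 CPM in the IL-1β libraries and 404, 419, 384 and 401 CPM with butyrate added, against 135 ± 10.4 CPM in control and 114 ± 7.1 CPM in butyrate islets. *Odc1*, the first enzyme of polyamine synthesis, had 78.7 ± 3.6 CPM in control, 76.1 ± 7.3 in butyrate, 285 ± 24 in IL-1β and 395 ± 27 CPM in IL-1β plus butyrate islets, so the level above control was larger with butyrate (difference 0.52 ± 0.09, FDR = 0.0098). *St3gal1*, a sialyltransferase, fell in both settings but by less with IL-1β (-0.93 against -1.58), as did *Cadps2*, a priming factor of dense core granules (-0.31 against -0.94). *Tmem255a* and *Mat1a* fell without IL-1β (-0.83 and -0.58) and were not called with it (-0.10 and -0.15), and *Olfml3* and *Phactr1* rose without IL-1β (1.07 and 0.33) and were not called with it (-0.30 and -0.17). *Bace2*, a protease of beta cells, and *Add3* fell with IL-1β (-0.52 and -0.38) and were at -0.06 and 0.04 without it, and *Morc3* and *Rassf10* rose with IL-1β (0.44 and 0.61) and were at -0.06 and -0.23 without it. *Stard5*, *Phactr1*, *Bace2*, *Add3*, *Mat1a*, *Morc3* and *Odc1* were chosen after their values were seen.

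*Sulf1* and *Cxcl1* had large effects with IL-1β and none called without it (-2.35 against -0.25, and -1.45 against 0.57), but their differences were not called (FDR = 0.26 and 0.36). The control islets had only 0.98 ± 0.38 CPM of *Sulf1* and 0.32 ± 0.092 CPM of *Cxcl1*, levels at which the counts are few.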

How the data were processed

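The authors mapped single-end reads of 16 islet libraries to GRCm38 (mm10) with STAR 2.5.3a, and the deposited values are raw counts of reads per gene, without normalization. The annotation release and strand setting are not given in the sources used here. Per the submitters' processing notes, bcl2fastq 2.19.1, FastQC 0.11.7, MultiQC 1.7 and DESeq2 were used. GENCODE M21 gave symbols and positions for 52489 of 52636 identifiers, and RefSeq promoter windows (GRCm38.p6) matched 16769. The table held 0 columns of other samples.

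In R 4.3.3, edgeR 4.0.16 kept 18587 genes (filterByExpr), normalized by TMM, and fitted a single robust quasi-likelihood model to the 4 conditions, without a replicate block. The contrasts were the butyrate effect with IL-1β, the butyrate effect without it (over control), and their difference. Benjamini-Hochberg adjusted p-values (FDR) under 0.01, the threshold of the study, were called. CPM are TMM-scaled, summed CPM of lists use the plain library totals, and errors are SD over 4 libraries or SE of the fit. Where the pooled islets came from separate mice is not recorded per library, and p-values measure the spread between these preparations. Within a condition, pairs of libraries differed by more than counting error (chi-square per gene 4.9 to 13.5 with IL-1β alone and 5.07 to 8.84 when butyrate was added), so no library counted as a repeat. The scripts were tested on simulated data.

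Genes named are the 15 largest rises and falls (FDR under 0.01, average log2 CPM of at least 1, no overlap between conditions), the 10 smallest p-values at that level, the 10 highest means, up to 6 called and 3 most abundant members of each of 69 gene lists (average log2 CPM of at least 0), genes the study names, and the 5 largest rises and falls in the difference. Outside this rule and chosen after values were seen are genes marked so in the text and *Acvr1*, *Acvr1b*, *Bub1b*, *Hspa1a*, *Kat2b*, *Kat6b*, *Kat8*, *Ncoa3*, *Tnfrsf1b*, *Tnfrsf9*, *Tnfrsf11a*, *Tnfrsf22*, *Traf2*, *Cacng7*, *Cdc25c*, *Cdkn1c*, *E2f1*, *Espl1*, *Fzd2*, *Il11ra1*, *Il1rap*, *Kcnb2*, *Kcnk13*, *Kcnn2*, *Kcnt2*, *Kif18a*, *Kif23*, *Mmp9*, *Nsf*, *Prdx4*, *Slc3a2* and *Ung*. The comparison and the lists were chosen with earlier results of these data known. Lists were not tested as sets, and some of their members are not reported here. Alternatives were other scalings, other filters, DESeq2 1.42.0, the 8 libraries alone, a replicate block, an FDR of 0.05 and leaving out each library. Reads carried no molecular identifiers, so folds and intervals of low counts cover counting error only.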

Additional observations from a re-analysis of the deposited data

Results flagged for a closer look

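In groups of 4 libraries, 34 of the 494 pairs of a named gene and a condition held a library whose gap to the next one exceeded Dixon's critical value, 9 of them in IL-1β replicate 1, and chance alone flags about 1 in 20. IL-1β replicate 1 was high for *Slco1a5* (3.57 CPM, others 2.74 to 2.85), *Phactr1* (284 CPM, others 239 to 244), *Nfkb2* (86.3 CPM, others 63.2 to 66.8), *Hnf4a* (46.2 CPM, others 42.6 to 43) and *Isl1* (207 CPM, others 193 to 194) and low for *Ltf* (0.827 CPM), *Fcer1g* (5.22 CPM), *E2f2* (11.5 CPM, others 13.4 to 13.7) and *Lamb3* (11 CPM, others 16.9 to 18.1). IL-1β replicate 2 was high for *Aqp4* (77.1 CPM) and *Eda2r* (6.04 CPM) and low for *Ncoa3* (40.7 CPM), IL-1β replicate 3 was high for *Cxcl1* (27.6 CPM) and *Lamb2* (1.24 CPM), and IL-1β replicate 4 for *Olfm2* (1.3 CPM), *Cacna1g* (42.7 CPM), *Efna3* (0.108 CPM) and *Cacna1f* (3.1 CPM). With butyrate added, replicate 1 was high for *Pianp* (9.18 CPM) and *Sst* (3000 CPM) and low for *Rims1* (1.71 CPM), and replicate 2 was high for *Cxcl1* (13.6 CPM) and *Hspa1a* (1.57 CPM) and low for *Cd248* (5.14 CPM), *Dnm1* (48.9 CPM), *Espl1* (0.976 CPM) and *Slc7a5* (313 CPM). Replicate 3 was low for *Psmb10* (13.7 CPM) and high for *Chac1* (99.2 CPM) and *Slc3a2* (253 CPM), and replicate 4 was high for *B4galnt1* (5.92 CPM), *Orm1* (7.27 CPM) and *Plxnc1* (1.3 CPM) and low for *Ppy* (1350 CPM).

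The butyrate effect differed between islets with and without IL-1β for 18 genes by the test of the difference itself (edgeR, FDR under 0.01). On the log2 scale it was lower with IL-1β for *Nos2* (-5.53), *Lama1* (-2.13), *Olfml3* (-1.37), *Ramp1* (-1.27), *Dnah11* (-1.02), *Aqp4* (-0.78), *Itgb8* (-0.53), *Phactr1* (-0.50), *Bace2* (-0.46) and *Add3* (-0.42). It was higher with IL-1β for *Rassf10* (0.84), *Tmem255a* (0.74), *St3gal1* (0.66), *Cadps2* (0.63), *Alcam* (0.59), *Odc1* (0.52), *Morc3* (0.50) and *Mat1a* (0.44). *Nos2* was near 0 in control islets (0.035 CPM), so its effect without IL-1β rests on few counts.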

How the results depend on the processing

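Of 227 called genes named in the text, 181 kept their call in all 17 alternatives, 46 lost it in at least 1 and 0 reversed, and 12 of 20 uncalled genes were called in at least 1. At an FDR under 0.05 there were 5595 called genes (2457 raised, 3138 lowered), 3804 of them in the same direction without IL-1β, and 39 with a different effect. The number with a different effect was 95 with no filter on low counts and 52 with DESeq2. Leaving out 1 library at a time gave 3114 to 3595 called genes, 1182 to 1365 raised and 1873 to 2282 lowered, 258 to 336 raised and 256 to 316 lowered at least 2-fold, 2244 to 2490 shared with the effect without IL-1β and 13 to 25 with a different effect, and *Ins2* and *Cdc25c*, which are not called, changed sign, with values from -0.0858 to 0.0705 and from -0.3789 to 0.0076. With only the 8 libraries compared there were 2988 called genes (1314 raised, 1674 lowered), and results that need the other 8 could not be had. A replicate block gave 4983 called genes (2126 raised, 2857 lowered) and 132 with a different effect. Deviations of libraries with the same number correlated at 0.152, 0.067, 0.110 and 0.231, and 7 of the 8 libraries correlated best with their own number, a hint from the data that the numbers may mark shared preparations. The paper describes independent experiments for the RNA sequencing. The sample numbers in the column names also run through all conditions of 1 replicate number before the next, and the paper pairs some of its t-tests. As 1 pair was under 0.1, a chosen bound, and no label says what the numbers mark, they were not used to pair the libraries in the main fit. If the numbers mark shared experiments, the main counts ignore a pairing, and those with the block are the ones that use it. Of the genes given as not called, *Ppy* was called with the block (edgeR FDR of 0.000326), and *Spp1* and *Lcn2* were not (0.0119 and 0.0303). The call was lost by 28 of the 227 genes without IL-1β plus butyrate replicate 1, 25 without its replicate 2 or with the 8 libraries only and 12 without IL-1β replicate 1. *Tnfrsf11a* lost it in 12 alternatives, *Ltf* in 10, *Stard5*, *Il11*, *Traf2* and *Kat8* in 9, *Gcg*, *Prdx4* and *Wnt4* in 8 and *Mafa* and *Mpeg1* in 7. Those lost in 6 or fewer were *Cd68*, *Tnfrsf1b*, *Tnfrsf9*, *Ddit3*, *Mmp13*, *Nxph4*, *Snap25*, *Syt4*, *Cela1*, *Fcgr3*, *Ffar2*, *Ptgs2*, *Hdac11*, *Sfrp5*, *Snap23*, *Aqp4*, *C1qc*, *Abcc8*, *Cdkn2c*, *Itgb2*, *Saa1*, *Slpi*, *Stx1a*, *Top2a*, *Acvr1*, *Adgre1*, *Bax*, *C3*, *Cacna1g*, *Cdk2*, *Cybb*, *Hspa5*, *Krt7*, *Lamb2* and *Saa3*. The depth limits low genes: under 1 CPM in control islets 288 of 4480 tested genes were called.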

Other observations

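Of 30 target genes of the transcription factor p53, a list written after the values of some of its members were seen, 14 were lowered and 0 raised by butyrate in the presence of IL-1β, with a median log2 fold change of -0.24. The count over all tested genes is 11.1% lowered and 8.41% raised. *Ccng1* had 232, 213, 198 and 170.0 CPM with IL-1β and 121, 130.2, 105 and 107 CPM with IL-1β plus butyrate, without overlap (log2 fold change -0.81 ± 0.10 (SE), FDR = 1.4e-05, edgeR). *Eda2r*, a receptor of the TNF family, had 4.86, 6.04, 4.87 and 4.76 CPM and 2.44, 1.99, 2.28 and 1.73 CPM (log2 fold change -1.27 ± 0.14 (SE), FDR = 1.3e-07, edgeR). *Psrc1*, *Pmaip1*, *Phlda3*, *Cdkn1a*, *Rps27l*, *Bax* and *Mdm2* had log2 fold changes of -1.71, -1.42, -0.93, -0.65, -0.62, -0.29 and -0.24. Without IL-1β 12 of the 30 were lowered and 2 raised, with a median of -0.20. *Cdkn1a* encodes an inhibitor of cell division and was lower in the same libraries as the mitotic genes.

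Among 16 heat shock genes, also listed after values were seen, 3 were raised and 3 lowered, where 8.41% and 11.1% of all tested genes were. Besides *Hspb1*, *Hspb8* rose from 6.14 ± 1.8 to 14.3 ± 3 CPM (1.2) and *Hspa1b*, whose copy *Hspa1a* shares much of its sequence, from 1.14 ± 0.38 to 2.49 ± 0.24 CPM (1.1). *Dnajb1*, *Dnaja1* and *Hsph1* fell (-0.33, -0.32 and -0.31). Of 27 imprinted genes 2 were raised, *Igf2* and *Cdkn1c*, a share near that of all tested genes, and 5 lowered. Of 6 caveola genes 1 was raised, *Cavin1*. The share of counts in long intergenic non-coding RNA genes was 0.563 to 0.694% with IL-1β and 0.722 to 0.801% with butyrate added, without overlap.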
